A study of Mus musculus with 24 samples.

Results

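Extracellular vesicles (EVs) released by stimulated mouse CD4+ T cells were compared with the EVs of resting CD4+ T cells, 3 libraries against 3. These are 6 of the 24 small RNA libraries of the series. Every feature of the count tables was taken, by name and biotype, after rows repeated in full had been dropped, which gave 4408 features. The donors were C57BL/6 mice, whose spleen and lymph nodes supplied the CD4+ cells, and the EVs were isolated from culture medium and their total RNA extracted with Trizol. Stimulated EVs came from cells held for 3 days on plates coated with 2 antibodies, anti-CD3 at 2 µg/ml, which engages the T cell receptor complex, and, for the costimulatory receptor, anti-CD28 at 5 µg/ml. Resting EVs came from cells with a longer history, 2 days of stimulation, 1 day of expansion and a further 2 days of rest in medium with IL2. The resting cells had therefore been activated before, and stimulation, time in culture and earlier treatment cannot be told apart here. Nothing in the labels ties the 3 libraries of a group to separate animals or cultures, so each p-value speaks of the spread between libraries, which may be technical. Counts are relative within a library, so fewer vesicles of a kind and less RNA per vesicle cannot be told apart either. Of the T cell genes sought, Cd3e, Cd247 and Ptprc were listed and Cd4 was not, and the blood cell miRNAs Mir142, Mir150 and Mir155 were present in every EV library.

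EVs are membrane particles that cells shed from the plasma membrane or release from endosomes, and they carry small RNAs of the parent cell, many of them fragments of tRNA, rRNA and Y RNA. A microRNA (miRNA) is cut from a hairpin precursor, is loaded into an Argonaute protein and pairs with mRNAs mainly through its seed, bases 2 to 8. T cell activation is known to raise miR-155, miR-146a, miR-21 and the miR-183 cluster in cells, and to lower miR-150 and other miRNAs of resting cells.

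The mature miRNAs on which the results below turn are shown first, from RefSeq (GRCm38.p6), with the seed in capitals. The count tables named miRNAs by precursor, without the arm, so the arm shown is the one usually the more abundant and was not measured here. A mature sequence was found for 184 of the 254 miRNA features, and miR-150-5p was not among them. The first group holds the 2 most abundant of the miRNAs that were higher in stimulated EVs, and 7 that were lower, and the others hold miRNAs that share a seed.
miR-155-5p, chr16:84714143-84714165, plus strand: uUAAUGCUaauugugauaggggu
miR-146a-5p, chr11:43374435-43374456, minus strand: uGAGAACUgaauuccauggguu
miR-139-5p, chr7:101475382-101475403, plus strand: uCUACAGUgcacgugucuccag
miR-210-3p, chr7:141221407-141221428, minus strand: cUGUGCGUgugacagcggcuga
miR-183-5p, chr6:30169711-30169732, minus strand: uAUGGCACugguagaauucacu
miR-182-5p, chr6:30165962-30165986, minus strand: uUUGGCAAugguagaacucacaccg
miR-96-5p, chr6:30169506-30169528, minus strand: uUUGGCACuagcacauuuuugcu
miR-21a-5p, chr11:86584120-86584141, minus strand: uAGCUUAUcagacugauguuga
miR-142a-3p, chr11:87756903-87756925, plus strand: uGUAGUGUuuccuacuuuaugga

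The Mir132 and Mir212 precursors lie side by side and their 3′ arms share a seed, as do the 3′ arms of Mir221 and Mir222 and the 5′ arms of the Mir26 precursors.
miR-132-3p, chr11:75173723-75173744, plus strand: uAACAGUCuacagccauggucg
miR-212-3p, chr11:75173443-75173464, plus strand: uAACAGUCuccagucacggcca
miR-221-3p, chrX:19146307-19146329, minus strand: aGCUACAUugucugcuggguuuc
miR-222-3p, chrX:19146901-19146923, minus strand: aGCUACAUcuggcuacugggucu
miR-26a-5p, chr9:119031811-119031832, plus strand: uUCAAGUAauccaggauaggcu
miR-26b-5p, chr1:74394324-74394344, plus strand: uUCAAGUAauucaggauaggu

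The let-7, miR-17 and miR-15/16 sequences shown next share 1 seed within each set while the later bases differ.
let-7g-5p, chr9:106178846-106178867, plus strand: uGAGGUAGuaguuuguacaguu
let-7i-5p, chr10:122985698-122985719, minus strand: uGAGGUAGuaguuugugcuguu
miR-98-5p, chrX:151913229-151913250, plus strand: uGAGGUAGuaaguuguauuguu
miR-17-5p, chr14:115043684-115043706, plus strand: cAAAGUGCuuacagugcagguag
miR-20a-5p, chr14:115044183-115044205, plus strand: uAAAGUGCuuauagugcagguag
miR-93-5p, chr5:138165574-138165596, minus strand: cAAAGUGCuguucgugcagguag
miR-106b-5p, chr5:138165787-138165807, minus strand: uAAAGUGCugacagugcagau
miR-16-5p, chr14:61631936-61631957, minus strand: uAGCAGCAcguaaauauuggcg
miR-322-5p, chrX:53054306-53054327, minus strand: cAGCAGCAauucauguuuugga
miR-497a-5p, chr11:70234730-70234751, plus strand: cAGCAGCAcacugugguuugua

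The 3 resting EV libraries held 1988062, 2184394 and 3231626 counts, and the 3 stimulated ones 2731956, 2489286 and 2202869. Levels are given as counts per 1000000 (CPM) after TMM scaling, which sets a trimmed mean of the log ratios between libraries to 0, and each comparison as a log2 fold of stimulated over resting EVs ± its standard error (SE). By edgeR's quasi-likelihood test at a Benjamini-Hochberg adjusted p under 0.05, 2386 features were called, 54.1% of the 4408. Of these 1274 were higher (28.9% of all features) and 1112 lower (25.2%), and the median log2 fold of all features was 0.09. With library totals in place of TMM the median moved up by 1.12 and the calls to 2880 higher (65.3%) and 426 lower (9.66%), 75% in all. Small negative folds therefore change sign with the scaling. Folds below are TMM values, to be read against the all-feature median, and reversals by library totals are named.

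The class shares of the counts, which no scaling touches, differed widely between the EVs. The miRNAs took 50.1, 51.9 and 52.7% of counts in resting EVs and 32.5, 32.5 and 33.6% in stimulated EVs. Cytoplasmic rRNA fragments moved the other way, from 1.36 ± 0.289% to 7.43 ± 0.12% (SD, n = 3). Fragments from long genes that contain no listed small RNA went from 8.01 ± 0.593% to 27.3 ± 1.74%. Genes that overlap a listed small RNA only in part stayed in this class, and whether rRNA reads were counted there was not tested. Small nuclear RNAs (snRNAs), the RNA parts of the spliceosome, went from 0.208 ± 0.0509% to 1.13 ± 0.064%, and small nucleolar RNAs (snoRNAs), which guide rRNA modification, from 0.286 ± 0.0356% to 0.49 ± 0.0329%. Mitochondrial features went down from 0.135 ± 0.00228% to 0.0421 ± 0.00187%. The libraries of the groups did not overlap in any of these shares, and in each the exact two-sided permutation p was 0.1, the smallest that 3 libraries against 3 allow. Reads of a miRNA were often counted again for the gene around it. With such host genes and overlapping miRNA copies left out of the table, miRNAs went from 74.6 ± 1.15% to 38.6 ± 1.51%. EVs of cells stimulated in the presence of DMSO, a separate group of 3 libraries, had miRNAs at 26.2 ± 4.78% and cytoplasmic rRNA at 8.94 ± 0.577%.

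**Figure D1:**
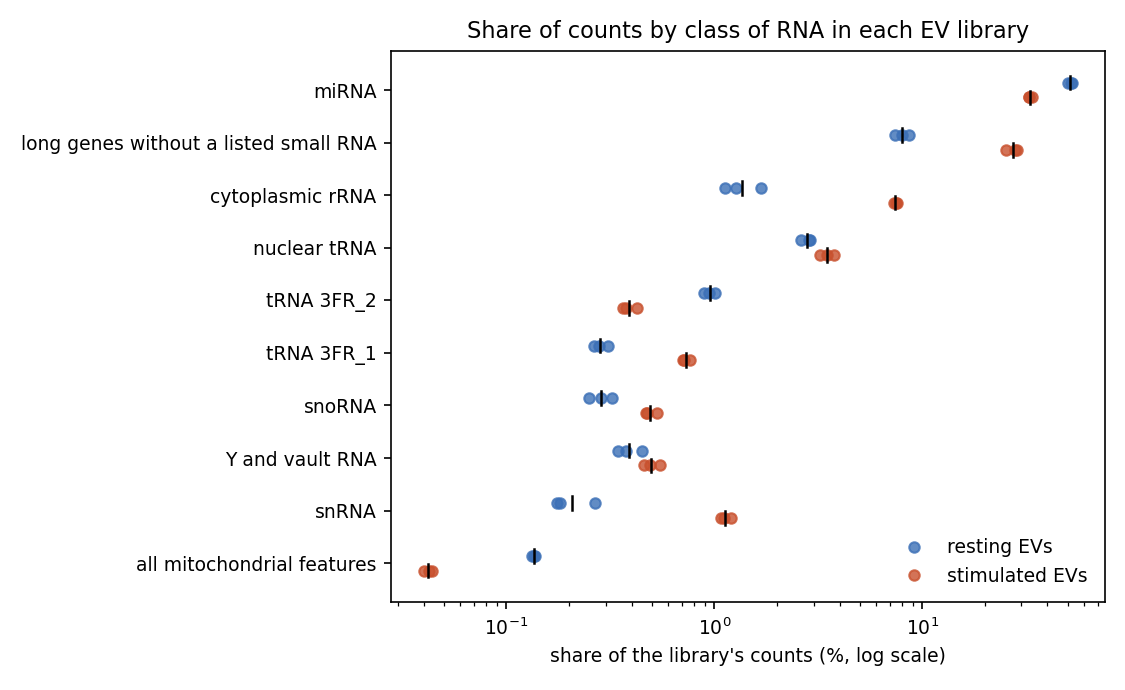
Share of each EV library's counts (%, log axis) by class of RNA, with resting libraries in blue, stimulated libraries in orange and a black bar at each mean of 3. The miRNA, mitochondrial and tRNA 3FR_2 shares were lower in all 3 stimulated libraries, and the shares of rRNA, snRNA, snoRNA and long genes without a listed small RNA were higher.

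Counts of features were then set beside the shares. Among miRNAs, 201 of 254 were lower in stimulated EVs and 8 higher, with a median log2 fold of -1.21 (-0.10 with library totals, 97 lower and 37 higher). Of 68 cytoplasmic rRNA features 61 were higher and 0 lower (median 0.89), and of 57 snRNAs 47 were higher and 2 lower (median 1.09). All 19 mitochondrial features were lower (median -2.96; with library totals 18 were called, median -1.84). Nuclear tRNA features were mixed, with 76 higher and 246 lower of 780 (median -0.31), and library totals turned this balance to 460 higher and 68 lower (median 0.81). The snoRNAs turned in the same way, from 15 higher and 30 lower of 152 (median -0.21) to 101 and 6 (median 0.90). Protein-coding genes gave 983 higher and 485 lower of 2685, with a median of 0.38 (1938 and 178 with library totals).

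**Figure D2:**
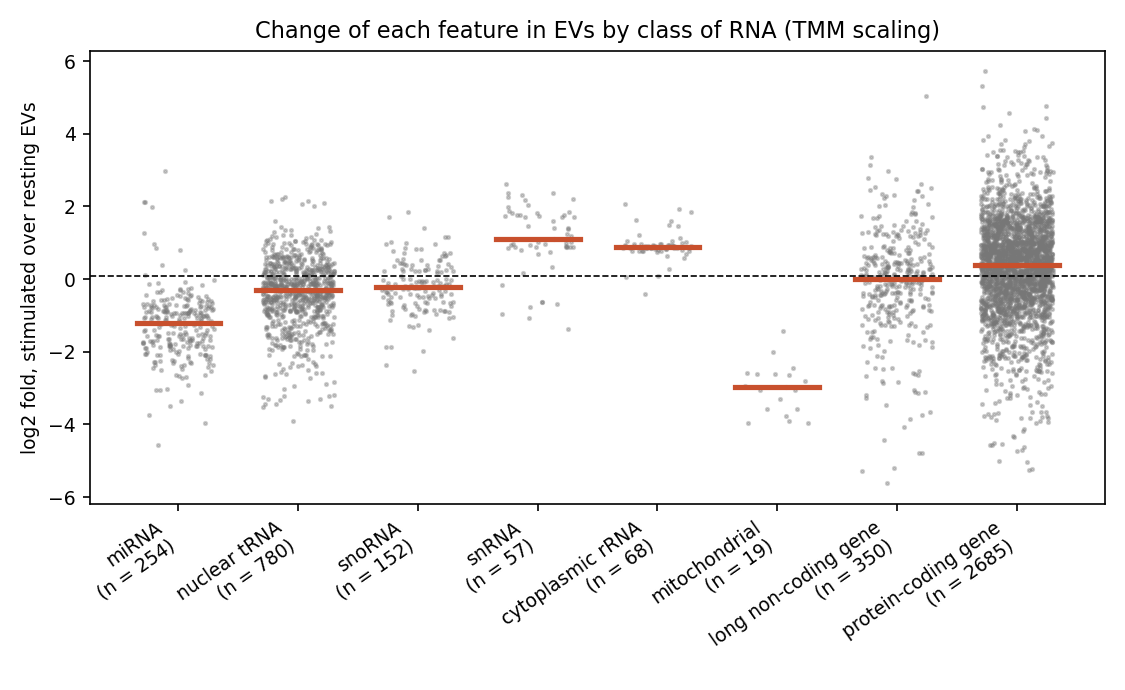
Log2 fold of stimulated over resting EVs (TMM scaling) for each feature, by class; orange bars are class medians and the dashed line is the median of all features, 0.09. The mitochondrial median of -2.96 and the miRNA median of -1.21 lie below that line, and the snRNA and rRNA medians of 1.09 and 0.89 above it.

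Only 8 miRNA features were higher in stimulated EVs, and Mir155 and Mir146 were the most abundant of them. Mir155, whose product is induced in activated T and B cells and is needed for normal helper T cell responses, stood at 4517, 4409 and 3914 CPM in the resting EV libraries and 6909, 7596 and 8861 CPM in the stimulated EV libraries. Its groups did not overlap, and the log2 fold was 0.86 ± 0.17 (adjusted p = 0.000158). Mir146, the precursor of miR-146a, a brake on NF-κB signalling, had 1237, 1089 and 919 CPM in the resting EV libraries and 1642, 1701 and 2310 CPM in the stimulated EV libraries. Again every stimulated library exceeded every resting one (log2 fold 0.80 ± 0.21, adjusted p = 0.00223). Both were also higher with library totals, at 1.97 and 1.90. The 6 others were Mir6240, Mir6236, Mir2137, Mir5121 and the pair Mir497 and Mir497b. Mir6240 had 71.1, 50.7 and 38.7 CPM in resting EVs against 426, 423 and 410.2 CPM in stimulated EVs (log2 fold 2.98 ± 0.26, adjusted p = 4.47e-10), and Mir6236 393, 233 and 214 CPM in resting EVs against 613, 675 and 741 CPM in stimulated EVs (1.27 ± 0.22, adjusted p = 2.24e-05). Mir2137 gave 1.98 ± 0.29 (adjusted p = 3.01e-06). Mir497 and Mir497b, on opposite strands of 1 locus, had equal counts in every library (7.11, 6.25 and 6.81 CPM in resting EVs against 21.5, 30.7 and 35.9 CPM in stimulated EVs; log2 fold 2.11 ± 0.33, adjusted p = 5.99e-06), so their reads cannot be told apart.

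The 11 mature sequences of these 8 features were searched in 141767 GENCODE M21 transcripts, on both strands and without mismatch. Outside its own precursor, miR-5121 was found in Snord33, a box C/D snoRNA inside Rpl13a, where it is shown in capitals. Mir5121 and Snord33 moved together, from 34.0, 28.5 and 43.5 to 72.2, 68.7 and 67.9 CPM and from 37.1, 34.0 and 47.1 to 79.0, 76.0 and 78.8 CPM, with log2 folds of 0.97 ± 0.24 and 0.97 ± 0.21 (adjusted p = 0.00134 and 0.00043). They may share reads, and are then 1 observation and not a pair. The sequences of Mir155 occurred also in its host transcript Mir155hg, and those of Mir6236, Mir6240, Mir2137 and Mir146 in no other transcript searched. RNAs outside this transcript set, and matches with mismatches, were not searched. The search therefore cannot tell whether reads of these features came from another RNA, such as rRNA, and their origin was not tested.
Snord33, chr7:45126864-45126947, minus strand: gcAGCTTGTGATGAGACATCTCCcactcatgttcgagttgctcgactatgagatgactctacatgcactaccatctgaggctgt

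The miRNAs known to be induced by T cell activation were mostly lower in stimulated EVs, as were miRNAs as a class, of which 79.1% were lower. Of 14 listed members 12 were lower and 2 higher, Mir155 and Mir146 (median log2 fold -2.37, and -1.26 with library totals, which called 9 lower and 3 higher). In cells 8 of the 14 were lower and 5 higher. Mir210, a miRNA induced under hypoxia, had 3492, 2448 and 2708 CPM in the resting EV libraries and 161, 174 and 217 CPM in the stimulated EV libraries, without overlap (log2 fold -3.97 ± 0.25, adjusted p = 2.26e-12). The Mir183, Mir96 and Mir182 precursors are neighbours on chromosome 6, and miR-182 is known to restrain Foxo1 in activated helper T cells. Mir182 stood at 2738, 2092 and 2275 CPM in resting EVs against 154, 155 and 220.0 CPM in stimulated EVs (log2 fold -3.75 ± 0.27, adjusted p = 1.37e-11). Mir183 and Mir96 followed with -3.34 ± 0.30 (adjusted p = 8.3e-10) and -3.49 ± 0.28 (adjusted p = 1.62e-10). In all 3 precursors of the cluster the lowest resting library was above the highest stimulated one. Mir21a, among the most abundant miRNAs of activated lymphocytes, had 170900, 129600 and 121700 CPM in the resting EV libraries and 22270, 24020 and 31950 CPM in the stimulated EV libraries (log2 fold -2.43 ± 0.31, adjusted p = 2.74e-07), and the gene around it, Vmp1, had nearly the same counts. The clustered Mir221 and Mir222, both regulators of the cell cycle inhibitor p27, fell by a similar amount, with log2 folds of -2.32 ± 0.20 and -2.46 ± 0.23 (adjusted p = 3.52e-10 and 2.07e-09), and Mir147 gave -2.41 ± 0.27 (adjusted p = 4.71e-08).

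The smaller changes on that list depended on the scaling. Mir212 had 817, 541 and 714 CPM in resting EVs against 200, 197 and 253 CPM in stimulated EVs (log2 fold -1.67 ± 0.23, adjusted p = 1.04e-06; -0.56 with library totals). Its neighbour Mir132, which shares the seed, had 1013, 869.7 and 804 CPM in resting EVs against 526, 527 and 655 CPM in stimulated EVs (log2 fold -0.65 ± 0.21, adjusted p = 0.00985), and library totals reversed it to 0.45. Mir31 and Mir146b were lower by TMM, at -0.74 ± 0.23 (adjusted p = 0.00786) and -0.94 ± 0.33 (adjusted p = 0.0179), and reversed by library totals, at 0.38 and 0.18. Without resting EVs replicate 3 the call of Mir31 was lost (log2 fold -0.48, adjusted p = 0.101), and that of Mir146b without resting EVs replicate 1 (-0.76, adjusted p = 0.0864) or stimulated EVs replicate 2 (-0.86, adjusted p = 0.0616).

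**Figure D3:**
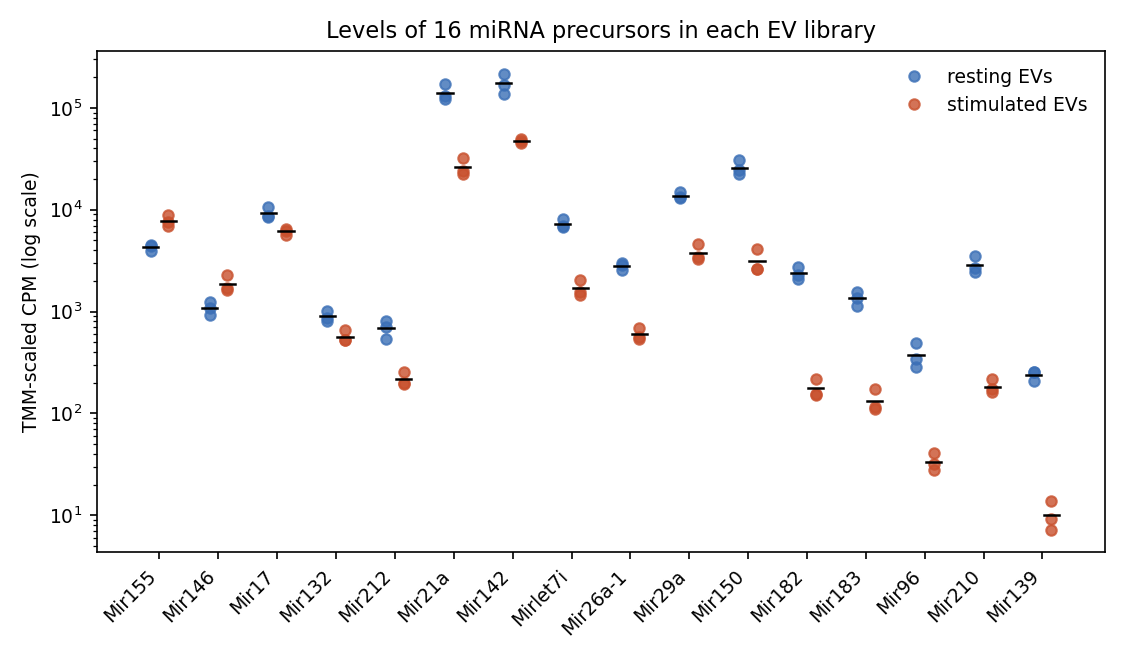
TMM-scaled CPM (log axis) of 16 miRNA precursors in each EV library, resting in blue and stimulated in orange, with a black bar at each mean of 3. Mir155 and Mir146 are higher in all 3 stimulated libraries and the other 14 are lower in all 3; for Mir17 and Mir132 this order is reversed when library totals replace TMM (0.52 and 0.45 on the log2 scale).

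The listed miRNAs of unstimulated T cells were also lower, 9 of 9 (median log2 fold -2.23; with library totals 7 lower and 1 higher, median -1.12). Of all miRNA features 79.1% were lower. Mir139 had the lowest log2 fold of all miRNAs, -4.57 ± 0.35 (adjusted p = 6e-11), from 254, 255 and 207 CPM in resting EVs to 9.25, 7.25 and 13.8 CPM in stimulated EVs. Mir150 (precursor at chr7:45121757-45121821, plus strand), a miRNA of mature lymphocytes that is lost on activation, had 30470, 24370 and 22280 CPM in the resting EV libraries and 2594, 2602 and 4126 CPM in the stimulated EV libraries. The groups did not overlap and the log2 fold was -3.05 ± 0.23 (adjusted p = 5.43e-11). Mir26a-1 and Mir26b, which share the miR-26 seed, gave -2.23 ± 0.20 and -2.06 ± 0.19 (adjusted p = 1.24e-09 and 9.37e-10). Mir342 gave -2.36 ± 0.20 (adjusted p = 2.97e-10) and Mir101a -1.73 ± 0.24 (adjusted p = 1.32e-06). Mir101b and Mir151 were the members of the list with the smallest falls, at -0.62 ± 0.24 and -0.69 ± 0.25 (adjusted p = 0.0297 and 0.0244), and both were reversed by library totals, at 0.47 and 0.42.

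Most seed families were lower, as were 79.1% of all miRNA features, by amounts that differed between families. All 12 let-7 precursors, whose products restrain proliferation, were lower, from -2.10 ± 0.24 in Mirlet7i to -1.23 ± 0.24 in Mir98 (adjusted p = 5.35e-08 and 0.000117), with a median of -1.71 (-0.60 with library totals). Mirlet7i stood at 8087, 6883 and 6699 CPM in resting EVs against 1448, 1572 and 2037 CPM in stimulated EVs. All 4 miR-29 precursors were lower (median -2.07; Mir29a -1.86 ± 0.26, adjusted p = 1.27e-06; Mir29b-2 -2.31 ± 0.36, adjusted p = 5.58e-06), as were 5 of 6 miR-30 precursors (Mir30e -1.76 ± 0.22, adjusted p = 2.55e-07) and 6 of 6 of the miR-23, miR-27 and miR-24 clusters (Mir23a -2.28 ± 0.17, adjusted p = 4.67e-11). The miR-15/16 family, which acts on cell cycle genes, was listed with 8 precursors, 6 of them lower and 2 higher, Mir497 and Mir497b. Mir497b, on the opposite strand, has another seed, ACCACAG, and its counts equal those of Mir497, so the 2 are 1 observation. Of the 6 precursors with the seed AGCAGCA, 5 were lower and 1, Mir497, was higher. Within it Mir16-1 gave -1.76 ± 0.27 (adjusted p = 3.66e-06), Mir322 -3.13 ± 0.28 (adjusted p = 7.15e-10) and Mir497 2.11 ± 0.33. Mir16-1, Mir322 and Mir497, with 1 seed, AGCAGCA, thus had unequal folds.

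The miRNAs of the Mir17 cluster and its paralogs, which carry several seeds and come from clusters that promote lymphocyte growth, had the median nearest to 0 of the families listed. The 15 precursors were all lower by TMM (median log2 fold -0.83), but with library totals 4 were higher and 3 lower (median 0.27). Of the Mir17 cluster on chromosome 14, Mir17 had 8729, 8488 and 10670 CPM in resting EVs against 5686, 6127 and 6534 CPM in stimulated EVs (log2 fold -0.60 ± 0.17, adjusted p = 0.00415), Mir20a gave -0.83 ± 0.18 (adjusted p = 0.000413) and Mir92-1 -0.90 ± 0.24 (adjusted p = 0.00264), and library totals reversed all 3, at 0.52, 0.29 and 0.21. The paralogous cluster on chromosome 5 lies in the gene Mcm7, and its 3 precursors had lower folds, Mir93 with -2.12 ± 0.21 from 10200, 7871 and 7437 to 1728, 1753 and 2394 CPM (adjusted p = 5.06e-09), Mir106b with a log2 fold of -2.09 ± 0.22 (adjusted p = 1.03e-08) and Mir25 with -1.78 ± 0.22 (adjusted p = 1.61e-07). Library totals left these at -1.02, -0.98 and -0.68. Mir17, Mir20a, Mir93 and Mir106b share the seed AAAGUGC, and the test of the difference between the clusters was not run.

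The most abundant RNAs changed with these classes. In resting EVs the 10 most abundant features were Mir142, Mir142b, Mir142hg, Mir21a, Vmp1, Mir17hg, Mcm7, 2010111I01Rik, Smc4 and Mir150, that is miRNAs and the genes that contain them. Mir142, the miRNA of blood cells in general, had 138200, 168500 and 217100 CPM in the resting EV libraries and 45540, 46790 and 49100 CPM in the stimulated EV libraries (log2 fold -1.89 ± 0.27, adjusted p = 1.63e-06), and Mir142b, on the other strand, had nearly the same counts. In stimulated EVs the list of 10 also held the ribosomal feature Rn18s-rs5 and the long features Gm42418, AY036118 and Gm20388 in place of Mcm7, 2010111I01Rik, Smc4 and Mir150. Whether rRNA reads were counted for these long features was not tested. Mir191 fell with Mir142, with -1.83 ± 0.35 (adjusted p = 9.31e-05). The miR-181 family, which sets T cell receptor sensitivity, had 4 of 6 precursors lower (median -1.35, and -0.23 with library totals), and Mir181a-1 had 234, 202 and 203 CPM in resting EVs against 167, 144 and 208 CPM in stimulated EVs, with overlap (-0.30 ± 0.20, adjusted p = 0.221; 0.81 with library totals).

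Few markers of other cell types were among the listed features. No myeloid or muscle and stromal miRNA of the lists (Mir223 and Mir143 among them) and no B cell, myeloid or red cell gene was a listed feature. The smallest count in any library was 4, so a marker that is not listed may still have been present in these EVs. Of the erythroid miRNAs Mir451a alone was listed, at 48.2, 95.9 and 80.6 CPM in resting EVs against 46.3, 33.1 and 71.9 CPM in stimulated EVs, with overlap (log2 fold -0.58 ± 0.34, adjusted p = 0.155; 0.52 with library totals). Mir126a, of platelets and endothelium, had equal counts with Mir126b and went from 148, 148 and 163 to 86.0, 78.3 and 83.5 CPM (-0.89 ± 0.22, adjusted p = 0.00167; 0.23 with library totals). Of the liver and epithelial lists, Mir192, Mir194-1 and Mir194-2 were lower, and Mir141 and Mir200c did not pass (-0.55 ± 0.27 and -0.09 ± 0.25, adjusted p = 0.0936 and 0.77). Library totals reversed Mir141 and Mir200c, and both were then called higher (median log2 fold 0.79). The part of other cells in the changes was not tested.

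Transfer RNA fragments differed by kind. The tables named them by locus and by a kind that mostly starts with the end of the tRNA, 3 or 5. The kinds are not defined in the sources used here. Since copies of a tRNA gene share reads, loci were also summed by anticodon and kind, which left 170 tRNA sums in a table of 3592 features, of which 30% were called higher and 23.8% lower. The kind 3FR_2 was lower throughout, in 58 of 58 loci (median log2 fold -1.95) and in 22 of 22 sums (median -2.34). With library totals, which called 72.9% of that table, 62.9% higher and 10.1% lower, 18 of the 22 sums were still lower and 0 higher (median -1.34). As a share of counts, 3FR_2 fragments went from 0.951 ± 0.0577% to 0.389 ± 0.0324%, without overlap. The kind 3FR_1 went the other way, from 0.284 ± 0.0221% to 0.727 ± 0.0308%, and 5FR_1 from 1.01 ± 0.146% to 1.58 ± 0.17%. By TMM 5 of 35 sums of 3FR_1 were higher and 8 lower (median -0.18), and by library totals 28 were higher and 0 lower (median 0.84). Of 31 sums of 5FR_1, 2 were higher and 16 lower by TMM (median -0.68). By library totals 11 of these were called higher and 6 lower. Most 5FR_1 sums were thus not called higher by either scaling, though by library totals their median log2 fold was above 0 (0.34).

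The largest fall was in the 3FR_2 fragment of tRNA-Cys-GCA, summed over 3 loci, which had 3370, 3888 and 4065 CPM in the resting EV libraries and 224, 233 and 297.3 CPM in the stimulated EV libraries (log2 fold -3.91 ± 0.26, adjusted p = 5.26e-12). Next were the 3FR_2 fragments of tRNA-Leu-CAA (-3.59 ± 0.27, adjusted p = 4.3e-11), tRNA-Ala-TGC (-3.43 ± 0.40, adjusted p = 7.16e-08) and tRNA-Ser-AGA (-3.31 ± 0.25, adjusted p = 3.88e-11). Another kind, the 5_half_up fragment of tRNA-Lys-TTT, had 499.6, 701 and 1066 CPM in resting EVs against 75.3, 68.0 and 74.8 CPM in stimulated EVs (-3.38 ± 0.25, adjusted p = 2.48e-11). In each of these the highest stimulated library lay below the lowest resting one. At the other end, the 3FR_1 fragment of tRNA-Gly-TCC, summed over 7 loci, had 254, 248 and 234 CPM in the resting EV libraries and 852, 964 and 1276 CPM in the stimulated EV libraries (log2 fold 2.07 ± 0.21, adjusted p = 6.89e-09). The 3FR_1 fragments of tRNA-Arg-TCT and tRNA-Glu-TTC were higher by 1.30 and 1.08 on the log2 scale (adjusted p = 0.000562 and 5.62e-05). Their means in DMSO EVs, 41.9 and 372 CPM, lay between those of resting EVs (29.95 and 296 CPM) and stimulated EVs (75.3 and 627 CPM). The DMSO EV means of the tRNA-Gly-TCC 3FR_1 and tRNA-Lys-TTT 5_half_up fragments, 665 and 217 CPM, also lay between the 2 groups. The 5FR_2 fragment of tRNA-Gly-GCC, from 13 loci, went from 206, 173 and 159 to 273, 328 and 459 CPM (0.98 ± 0.25, adjusted p = 0.00172), while its 3FR_2 fragment fell from 206, 131 and 149 to 14.1, 18.0 and 40.1 CPM (-2.78 ± 0.31, adjusted p = 3.85e-08). The fragments of 1 tRNA thus differed in direction. By amino acid, glycine tRNA sums had 4 higher and 3 lower of 18 (14 and 1 with library totals), and serine tRNA sums 0 higher and 11 lower of 15 (2 and 3 with library totals).

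**Figure D4:**
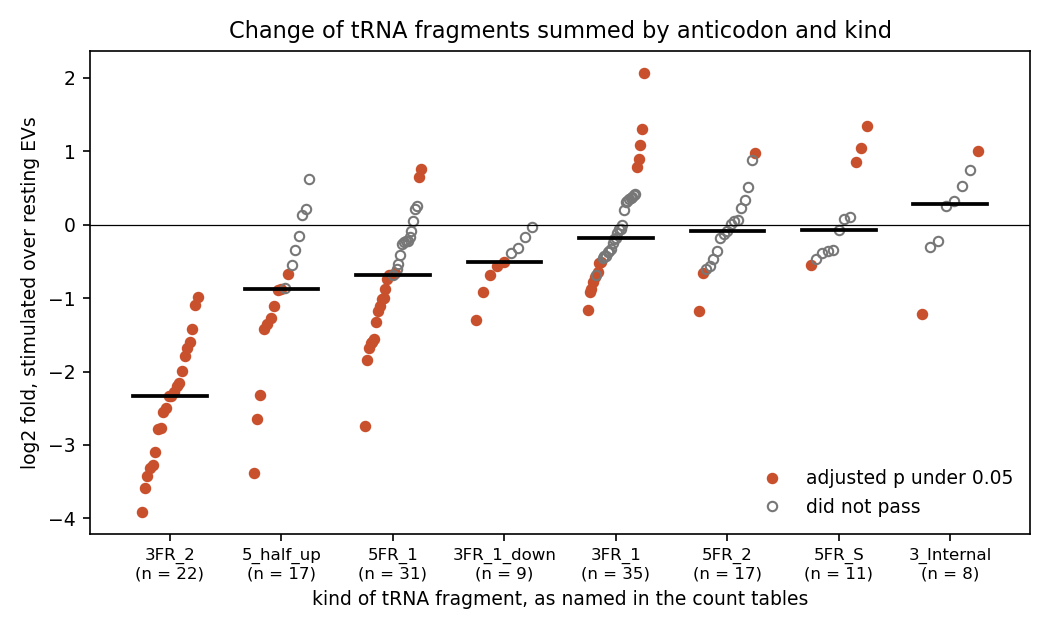
Log2 fold of stimulated over resting EVs for tRNA fragments summed by anticodon and kind; filled points passed the adjusted p of 0.05 and bars are medians. All 22 points of 3FR_2 lie below 0, and the highest point is the 3FR_1 fragment of tRNA-Gly-TCC at 2.07.

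Of the 68 cytoplasmic rRNA features 61 rose and 7 did not pass. Rn18s-rs5, a feature of 18S rRNA, had 16060, 13980 and 14770 CPM in the resting EV libraries and 37970, 41550 and 45720 CPM in the stimulated EV libraries (log2 fold 1.48 ± 0.17, adjusted p = 5.76e-08). The 5.8S feature n-R5-8s1 had 325, 206 and 237 CPM in resting EVs against 996, 1047 and 1147 CPM in stimulated EVs (2.06 ± 0.25, adjusted p = 1.68e-07). Of the 56 annotated copies of 5S rRNA, which share sequence and may share reads, 49 were higher, for example n-R5s151 with 1.85 ± 0.27 (adjusted p = 2.54e-06). Among the snRNAs, the U1 feature Rnu1b2 gave 0.76 ± 0.23 (adjusted p = 0.00692), and without resting EVs replicate 3 this call was lost (0.59, adjusted p = 0.0564). The snRNA feature with the largest rise was Gm24497, from 90.9, 66.0 and 53.9 to 360.2, 372 and 557 CPM (2.62 ± 0.26, adjusted p = 4.15e-09). The transcription regulator 7SK, listed as the snRNA Rn7sk, was lower instead (54.5, 59.1 and 50.8 CPM in resting EVs against 21.8, 20.3 and 21.4 CPM in stimulated EVs; -1.37 ± 0.20, adjusted p = 1.97e-06), and with library totals its fold was -0.25 and did not pass. Rpph1, the RNA of ribonuclease P, rose by 1.29 on the log2 scale (adjusted p = 7.68e-06), and that of the related RNase MRP, Rmrp, overlapped between groups (-0.25 ± 0.23, adjusted p = 0.364; 0.87 with library totals).

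The RNAs of the Ro and signal recognition particles, which are well known in EVs, were lower by TMM. The Y RNA Rny3, which binds the Ro protein, had 1077, 1075 and 989 CPM in the resting EV libraries and 131, 169.7 and 214 CPM in the stimulated EV libraries (log2 fold -2.61 ± 0.22, adjusted p = 3.69e-10), and with library totals the fold was -1.51. Rny1, the more abundant Y RNA, changed less, with 4828, 4106 and 3927 CPM in resting EVs against 2593, 2900 and 3614 CPM in stimulated EVs (-0.50 ± 0.20, adjusted p = 0.0376), and library totals reversed it to 0.61. The vault RNA Vaultrc5 gave -0.88 ± 0.31 (adjusted p = 0.02), reversed to 0.24. Leaving out 1 library ended the calls of Rny1 and Vaultrc5 in 4 and 4 of 6 cases, with adjusted p of 0.0559 to 0.154 and 0.051 to 0.12. The 7SL RNAs, the RNA of the particle that targets nascent secretory proteins, were 3 of 3 lower; Rn7s1 had 875, 841 and 1152 CPM in resting EVs against 182, 208 and 211 CPM in stimulated EVs (-2.25 ± 0.19, adjusted p = 2.17e-10), Rn7s2 gave -2.26 and Rn7s6 -3.13 ± 0.20 (adjusted p = 3e-12). Rn7s1 and Rn7s2 had nearly the same counts and may share reads. The sequence of Rny3, which carries the clear change of the Y RNAs, is that of GENCODE M21 (GRCm38).
Rny3, chr6:47781624-47781725, plus strand: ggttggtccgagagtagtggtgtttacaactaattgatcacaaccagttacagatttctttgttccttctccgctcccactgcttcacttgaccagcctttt

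The mitochondrial features, which comprise 10 tRNAs, 2 rRNAs and 7 mRNAs, were all lower. Mitochondrial genomes are transcribed as long RNAs in which tRNAs separate the coding genes, and mt-Ti, the isoleucine tRNA, is shown as the member with the widest gap to the cells. It had 50.6, 61.1 and 82.7 CPM in the resting EV libraries and 5.00, 3.48 and 5.81 CPM in the stimulated EV libraries (log2 fold -3.77 ± 0.28, adjusted p = 2.49e-11). The leucine and glutamate tRNAs mt-Tl1 and mt-Te were at -3.95 ± 0.29 and -3.95 ± 0.32 (adjusted p = 2.01e-11 and 1.7e-10). The 2 rRNAs were the most abundant, mt-Rnr1 with 451, 427 and 524 CPM in resting EVs against 90.5, 96.6 and 71.9 CPM in stimulated EVs (-2.43 ± 0.18, adjusted p = 3.45e-11) and mt-Rnr2 with a log2 fold of -2.61 ± 0.16 (adjusted p = 2.26e-12). Of the mRNAs, mt-Co1, a subunit of cytochrome oxidase, gave -3.91 ± 0.27 (adjusted p = 7.08e-12), and mt-Cytb the smallest change of the 19, -1.44 ± 0.23 (adjusted p = 1.02e-05), which library totals left at -0.33 without passing. No mitochondrial feature overlapped between the groups, where 28.8% of all features were lower without overlap and 33% higher without overlap. In DMSO EVs the 2 rRNAs stood at 205 and 215 CPM, between the other EV groups.
mt-Ti, chrM:3706-3774, plus strand: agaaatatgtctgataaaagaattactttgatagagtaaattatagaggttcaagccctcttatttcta

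The cells gave 6 other libraries under the same contrast, 3 stimulated and 3 resting, which may come from the cultures that released the EVs, with 46.1% of features called, 23% higher and 23.1% lower. The mitochondrial features were higher in stimulated cells in 17 of 19 cases (median log2 fold 1.64) and lower in EVs in 19. The difference of the change, EVs minus cells, was tested in the same model, where 35.8% of all features were called: 15.2% higher and 20.7% lower. With library totals the calls in cells were 1991 higher and 342 lower. The difference was negative for 19 of 19 (median -4.40), with -6.48 ± 0.36 for mt-Ti (adjusted p = 1.52e-12), whose change in cells was 2.71 ± 0.24, and -4.20 ± 0.25 for mt-Rnr1 (adjusted p = 4.06e-12). Rn7s6 also parted, with 0.54 in cells and -3.13 in EVs (difference -3.67 ± 0.29, adjusted p = 3.31e-10), as did Rn7sk, with 1.71 and -1.37 (difference -3.08 ± 0.29, adjusted p = 9.92e-09). Of the 68 cytoplasmic rRNA features 68 were higher in cells (median 2.31) and 61 in EVs, and the difference was negative in 62. Nuclear tRNA features were 511 of 780 lower and 41 higher in cells (median -1.05), and the difference was positive in 274 and negative in 79. The 5FR_2 fragment of tRNA-Gly-GCC fell in cells, at -2.02 ± 0.25 (adjusted p = 3.07e-07), and rose in EVs (difference 3.00 ± 0.35, adjusted p = 2.94e-07).

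The test of EVs minus cells was also read for the miRNAs, of which 62 of 254 had a lower change in EVs than in cells and 2 a higher one. Over all features 20.7% were lower and 15.2% higher in this test, and the counts below are to be read against these shares. For 11 of the 14 activation-induced miRNAs the change was lower in EVs than in cells and for 0 higher. The 9 miRNAs of resting cells had 1 lower and 1 higher, the 12 let-7 precursors 2 lower, the 15 of the Mir17 cluster and paralogs 3, the 6 of the miR-23, miR-27 and miR-24 clusters 2, the 8 of miR-15/16 1, the 4 of miR-29 1 and the 6 of miR-30 0, and the 6 of miR-181 1 higher. The lists were not tested against each other. Mir212 rose in cells, by 1.38 on the log2 scale (adjusted p = 1.88e-05), and fell in EVs, a difference of -3.06 ± 0.33 (adjusted p = 6.94e-08). Mir132 and Mir31 behaved alike, with 1.10 and 0.71 in cells (adjusted p = 8.67e-05 and 0.0118) and differences of -1.75 ± 0.29 and -1.45 ± 0.32 (adjusted p = 4.49e-05 and 0.000996). The lower EV folds of Mir132 and Mir31 depend on the scaling, as given above. Mir155 and Mir146 rose in both, more in cells (1.66 ± 0.18 and 1.76 ± 0.21) than in EVs, with differences of -0.80 ± 0.24 and -0.96 ± 0.29 (adjusted p = 0.0128 and 0.0131). Mir182, Mir183, Mir96 and Mir210 were already lower in stimulated cells (-2.25, -1.74, -2.17 and -2.42) and lower still in EVs, with differences of -1.502, -1.60, -1.32 and -1.55 (adjusted p = 0.00122, 0.00225, 0.00695 and 0.000481). Mir150 was the reverse, with -3.95 ± 0.24 in cells and a difference of 0.90 ± 0.31 (adjusted p = 0.0243), and leaving out 1 library ended this call in 6 of 12 cases (adjusted p from 0.0508 to 0.0995). Mir181a-1 fell in cells, with -1.37 (adjusted p = 5.14e-06), and differed from that in EVs by 1.07 ± 0.29 (adjusted p = 0.00571). For Mir451a the cells gave 1.98 (adjusted p = 0.000125) and the difference was -2.56 ± 0.52 (adjusted p = 0.000396).

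**Figure D5:**
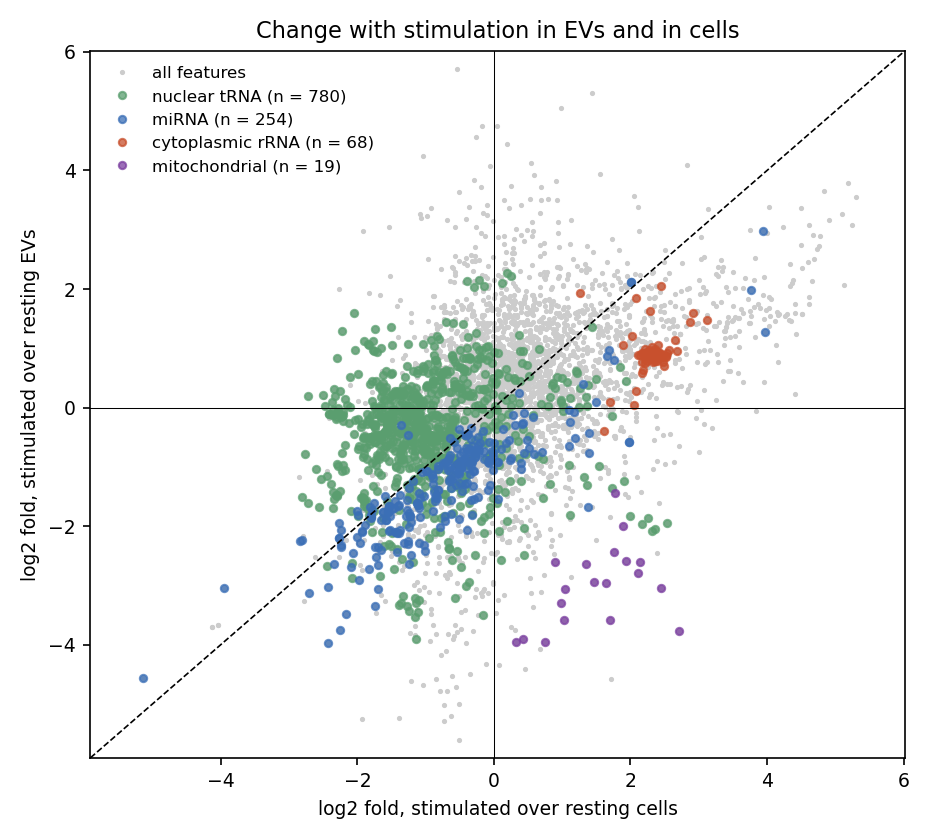
Log2 fold of stimulated over resting EVs (y) against that of stimulated over resting cells (x), 1 point per feature, with 4 classes in colour and a dashed line where both are equal. The 19 mitochondrial features lie to the right of 0 on the x axis and below 0 on the y axis, the cytoplasmic rRNA features mostly below the dashed line, and the nuclear tRNA features mostly left of 0.

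Long genes, counted here by the small RNA reads assigned to them and not by their mRNA, held the extremes of the comparison. The 8 highest features were Fam49a, Fgd5, Tbx3os1, Obox1 and Obox3, Fam19a1, Tmem163 and Mcf2l. Fam49a (chr12:12262139-12380965, plus strand) had 11.9, 16.7 and 7.33 CPM in the resting EV libraries and 634, 731 and 498 CPM in the stimulated EV libraries (log2 fold 5.72 ± 0.44, adjusted p = 4.52e-11). Tbx3os1 (chr5:119570130-119671365, minus strand) had 5.53, 5.56 and 5.24 CPM in resting EVs against 216, 191 and 137 CPM in stimulated EVs (5.05 ± 0.30, adjusted p = 1.14e-12) and Mcf2l (chr8:12873806-13020905, plus strand) 29.2, 38.9 and 30.4 CPM in resting EVs against 693, 753 and 429 CPM in stimulated EVs (4.25 ± 0.25, adjusted p = 1.14e-12). Obox1 and Obox3 overlap and had nearly equal counts, which varied from 47.6 to 193 CPM for Obox1 within the stimulated group. The DMSO EVs, whose cells were also stimulated, divided these genes. There Fam49a stood at 307, Fgd5 at 498 and Fam19a1 at 338 CPM, beside resting EV means of 11.95, 6.17 and 17.4 CPM. Tbx3os1, Obox1 and Mcf2l stood at 10.4, 4.15 and 26.7 CPM, beside resting EV means of 5.44, 5.10 and 32.8 CPM. The cells did not share the largest rises, with -0.54 ± 0.53 for Fam49a (adjusted p = 0.437; difference 6.26 ± 0.70, adjusted p = 1.29e-07) and -1.03 ± 0.24 for Mcf2l (adjusted p = 0.000809; difference 5.28 ± 0.34, adjusted p = 1.4e-11).

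The 8 lowest features were 2310040G07Rik, 1700128A07Rik, Zc3hav1, Ctse, Gm34015, Gm29554, Ppat and Gm20400. Zc3hav1 (chr6:38305286-38354603, minus strand), the gene of the zinc finger antiviral protein, had 417, 409 and 376 CPM in the resting EV libraries and 10.3, 7.54 and 13.8 CPM in the stimulated EV libraries (log2 fold -5.25 ± 0.26, adjusted p = 6.53e-14), that is 528, 588 and 719 counts against 41, 26 and 38. The lowest fold was that of 2310040G07Rik, with 96.4, 91.0 and 109.9 CPM in resting EVs against 1.5, 2.03 and 2.54 CPM in stimulated EVs (-5.61 ± 0.34, adjusted p = 1.25e-12). Several of the 8 had nearly the same level in a resting library, such as 122, 129 and 123 counts for 2310040G07Rik, Ctse and Ppat in replicate 1, and whether they share reads was not tested. In cells Zc3hav1 was lower too, at -1.93 ± 0.26, and the difference was -3.33 ± 0.36 (adjusted p = 7.25e-08).

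The fold of a coding gene went with the length of genome it spans, by which the genes were put into 4 groups of equal size. In the group with the shortest spans 126 of 656 were higher and 248 lower (median log2 fold -0.40), and in the group with the longest 343 of 656 were higher and 31 lower (median 0.78). The groups between had medians of 0.17 and 0.61. Without genes that contain a listed small RNA, the medians were -0.29, 0.20, 0.65 and 0.78 from the shortest group to the longest. Histone and ribosomal protein genes are among the short ones. Of all coding genes 36.6% were higher and 18.1% lower. Of 6 histone genes 5 were lower (median -2.19, and -1.08 with library totals), at mean levels of up to 22.9 CPM in resting EVs for Hist1h4d. Of 28 ribosomal protein genes 16 were lower and 1 higher (median -0.67), and library totals turned this to 6 lower and 12 higher. In cells 18 ribosomal protein genes were higher and 0 lower. Genes that contain a listed small RNA were not left out of these 28, and whether snoRNA reads were counted for them was not tested.

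Genes of T cell state were read with the same limit. Of 22 activation genes sought 5 were listed, and Cd44, an adhesion receptor of activated cells, rose from 129, 108 and 131 to 526, 485 and 489 CPM (2.03 ± 0.24, adjusted p = 1.11e-07). Prdm1, the gene of Blimp-1, also rose (1.46 ± 0.35, adjusted p = 0.00103), whereas Slc7a5, an amino acid transporter induced by activation, fell from 303, 370.3 and 340.3 to 37.0, 36.5 and 30.5 CPM (-3.28 ± 0.34, adjusted p = 9.01e-09). Of 9 listed genes of quiescent T cells 5 rose and 0 fell, where 28.9% of all features and 36.6% of coding genes were higher. With RLE factors 3 of the 9 were higher and 0 lower. Tcf7, a transcription factor of naive and memory cells, had 24.5, 20.2 and 16.2 CPM in resting EVs against 164, 225 and 107 CPM in stimulated EVs (3.04 ± 0.36, adjusted p = 1.18e-07), and Foxo3 16.6, 11.1 and 23.0 CPM in resting EVs against 229, 301 and 57.0 CPM in stimulated EVs (3.51 ± 0.42, adjusted p = 1.4e-07), with a wide spread in the stimulated group. In DMSO EVs these were 4.85 and 23.8 CPM, not near the stimulated EV means and beside resting EV means of 20.3 and 16.9 CPM. In cells Tcf7 fell by 1.53 on the log2 scale (adjusted p = 0.00354), a difference of 4.57 ± 0.55 (adjusted p = 4.11e-07). Foxo1 gave 1.06 ± 0.27 (adjusted p = 0.0016), and Satb1 0.76 ± 0.27 (adjusted p = 0.0205), a call lost in 3 of 6 omissions of a library (adjusted p up to 0.0901), with RLE factors (adjusted p = 0.0551) and by DESeq2 (adjusted p = 0.0592). Cd3e overlapped between the groups (-0.04 ± 0.30, adjusted p = 0.919; 1.08 with library totals), and Ptprc, the gene of CD45, was lower (-1.54 ± 0.39, adjusted p = 0.00172; -0.39 with library totals, not passing). Of the vesicle protein genes Hspa8 alone was listed, at 655, 602 and 507 CPM in resting EVs against 464, 479 and 609 CPM in stimulated EVs, with overlap (-0.18 ± 0.18, adjusted p = 0.414; 0.92 with library totals), while it rose in cells (1.27; difference -1.45 ± 0.26, adjusted p = 0.000108).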

How the data were processed

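Small RNA libraries of EVs and cells, 3 in each of 8 groups, were deposited by the authors as raw read counts per named feature, 1 table per library, and the submitters' processing notes name Bowtie, GRCm38 and mm10. The smallest count in any table is 4, so features at 0 in a library are not analysed here; other steps are not given in the sources used here. Rows repeated in full were dropped. Counts were tested with edgeR 4.0.16 in R 4.3.3 (quasi-likelihood, TMM, all 24 libraries in 8 groups, adjusted p threshold 0.05 by Benjamini-Hochberg over all features); filterByExpr at a minimum count of 10 removed 0 features. Tests were checked on simulated data. Class shares had exact permutation tests; shares without host genes and copies, and class counts by library totals, were chosen after seeing the data. Alternatives were DESeq2 1.42.0, other scalings and filters, subsets of libraries, a replicate block and leaving out each library. The members and lists were chosen with earlier results of these data known. Named features were the extremes of each class past the threshold, above a CPM minimum of 50 (100 for miRNAs, 20 within other classes) and without overlap, the 10 most abundant, and list members. Same-numbered EV libraries did not deviate together (correlations -0.0762, -0.0399 and -0.0543). Reads without molecular identifiers are not independent molecules.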

Additional observations from a re-analysis of the deposited data

Results flagged for a closer look

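Of the features followed by name through every alternative, 12 had calls in opposite directions in EVs and in cells, and the difference of the change, EVs minus cells, passed in edgeR's quasi-likelihood test. Among miRNAs this held for Mir212 (-3.06 on the log2 scale), Mir132 (-1.75) and Mir31 (-1.45), which were higher in stimulated cells and lower in stimulated EVs. The EV direction of Mir132 and Mir31 is reversed by library totals, and the EV call of Mir212 was lost with TMM on miRNAs alone (-0.20, adjusted p = 0.297). Mitochondrial RNAs gave differences of -6.48 for mt-Ti, -4.70 for mt-Tl1, -4.20 for mt-Rnr1, -3.49 for mt-Rnr2 and -3.21 for mt-Cytb. The 7SL feature Rn7s6 gave -3.67 and Rn7sk (snRNA) -3.08. With library totals the EV calls of mt-Cytb (-0.33, adjusted p = 0.201) and Rn7sk (-0.25, adjusted p = 0.286) were lost. Fragments of Mcf2l and Tcf7 differed the other way, by 5.28 and 4.57, being higher in stimulated EVs and lower in stimulated cells.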

How the results depend on the processing

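The scaling moved most: TMM on miRNAs alone gave 3309 higher and 286 lower features, and library totals 2880 and 426. With a mean count of 50 or more, 2381 features were left and 832 were higher. Library totals gave 2258 higher and 361 lower in the summed tRNA table, and, chosen after seeing the data, 1991 and 342 in cells. With TMM on miRNAs alone and with library totals, the log2 folds of these features were above 0 in place of below it: Mir132 (0.81 and 0.45), Mir31 (0.74 and 0.38), Mir181a-1 (1.17 and 0.81), Mir451a (0.88 and 0.52), Hspa8 (1.28 and 0.92), Mir146b (0.53 and 0.18), Mir17 (0.88 and 0.52), Mir20a (0.65 and 0.29), Mir92-1 (0.56 and 0.21), Mir126a (0.60 and 0.23), Rny1 (0.96 and 0.61), Vaultrc5 (0.59 and 0.24), Rmrp (1.24 and 0.87) and Cd3e (1.45 and 1.08). TMM on miRNAs alone also reversed Rn7sk (0.11), Mir98 (0.23) and mt-Cytb (0.031). Of 134 single-feature results 106 kept direction and side of the threshold in every alternative. Leaving out 1 library gave 1021 to 1192 higher and 962 to 1091 lower features, 825 to 988 and 730 to 862 in the summed table, 557 to 624 and 758 to 919 for EVs minus cells, and -0.41 to 0.21 for Cd3e. The same-numbered libraries share a number only; with the replicate block in a fit of the 6 EV libraries 1249 features were higher and 1111 lower, and in the 8-group model 1266 and 1106. Without stimulated EVs replicate 3, Mir451a passed (-0.92, adjusted p = 0.0423). The cause of these shifts was not tested.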

Other observations

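Among the miRNA features, those of the Mir297, Mir466, Mir467 and Mir669 names, which lie in repeated copies and may share reads, had 43 of 60 lower and 0 higher (median log2 fold -0.92, and 0.21 with library totals). The other names had 158 of 194 lower and 8 higher (median -1.56, and -0.46). Long non-coding genes gave 76 higher (21.7%) and 97 lower (27.7%) of 350, beside 28.9% and 25.2% of all features. Library totals turned these counts to 215 and 43 (median 1.13), beside 65.3% and 9.66% of all features. In cells 87 of 152 snoRNAs were higher and 10 lower, where 23% of all features were higher and 23.1% lower. The change was lower in EVs than in cells for 68 snoRNAs and higher for 2, where 20.7% of all features were lower and 15.2% higher.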
